A study of Mus musculus with 57 samples.

Results

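The H3K27ac libraries of this study are 19 of its 57 chromatin immunoprecipitation libraries, 9 from cortex and 10 from gastrocnemius, and they were chosen by the antibody and the tissue given in their labels. They came from 10 PSAPP mice, of which 9 gave both tissues, so that most animals stand on both sides of the comparison. PSAPP is a model of amyloid disease with a pair of transgenes, one for mutant human presenilin 1 and one for Mo/HuAPP695swe, a mouse and human hybrid of APP with the Swedish mutation. By the labels all animals of both groups carried these transgenes and were 13 months old. Both sexes were used, and the sex of each library is not used here. The sources used here do not give the promoter that drives the transgenes. No other age or genotype was compared, so the contrast is between tissues of one model. The gastrocnemius is the calf muscle, made mostly of fast fibres.

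Acetylation of lysine 27 of histone H3 is written by the acetyltransferases p300 and CBP and removed by histone deacetylases. It marks promoters and enhancers in use, and the enhancers of a cell type carry it more selectively than promoters do. The same lysine can instead be trimethylated by Polycomb repressive complex 2, and a single histone tail cannot hold both modifications. Trimethylation of lysine 4 marks the start sites of promoters. The comparison of cortex with gastrocnemius asks which promoters and distal sites carry acetylation in each tissue. In whole tissue, fewer cells of a type and less acetylation per cell cannot be told apart.

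Every value rests on the peaks that the authors called in each library and on the whole fragments counted in each peak. Peaks on chromosomes 1 to 19 were used, and levels are given as CPM, the count of fragments at a place after each library was scaled to the same total in these peaks. A library without a peak at a place has no value there, which is written as no peak or 0, although it may still hold reads. Fragments in peaks numbered 14.3 to 21.0 M in 8 cortex libraries, 3.90 M in cortex replicate 9, and 15.6 to 27.04 M in the gastrocnemius. The log levels at sites called in every library correlated at 0.941 to 0.980 within the cortex, at 0.944 to 0.981 within the gastrocnemius and at 0.715 to 0.798 between tissues (Pearson's r across 12829 sites, which are not independent replicates). The first principal component held 78.5% of the variance and separated the tissues, and the second held 3.65%.

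One mouse stood apart at Prnp. Prnp, the gene of the prion protein, had the highest promoter level of all genes over the 19 libraries, equal to that of Prn, which is annotated with the same start, with means of 44.5 CPM in the cortex and 54.8 in the gastrocnemius in a window of 1 kb on either side of the start site, where the median window held 10.2 and 8.26. The whole peak over the Prnp start held 281 to 388 CPM in 8 cortex libraries (median 324) and 57.9 in cortex replicate 5. It held 316 to 544 in 9 gastrocnemius libraries (median 412) and 56.7 in gastrocnemius replicate 6, which came from the same mouse. The median of the other mice was 5.60 times the value of this mouse in the cortex and 7.27 times in the gastrocnemius.

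The other 2 marks of the series also set this mouse apart at Prnp. The H3K4me3 peak of this mouse held 106 CPM in the cortex, against 463 to 597 in the other mice, and 56.6 in the gastrocnemius, against 347 to 482. It was 5.8 kb and 5.6 kb wide, where the other mice had 10.4 to 11.4 kb and 8.4 to 11.4 kb. An H3K27me3 peak lay over the Prnp start in every other mouse, at 350 to 538 CPM in the cortex and 325 to 605 in the gastrocnemius, and no such peak was called in either tissue of this mouse. Transgenes of the Mo/HuAPP695swe kind are commonly carried behind the mouse Prnp promoter, whose sequence reads would align to the endogenous gene. Whether the transgenes lie behind it in these mice, whether this mouse carried them, and what part they had in these counts was not tested.

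**Figure D1:**
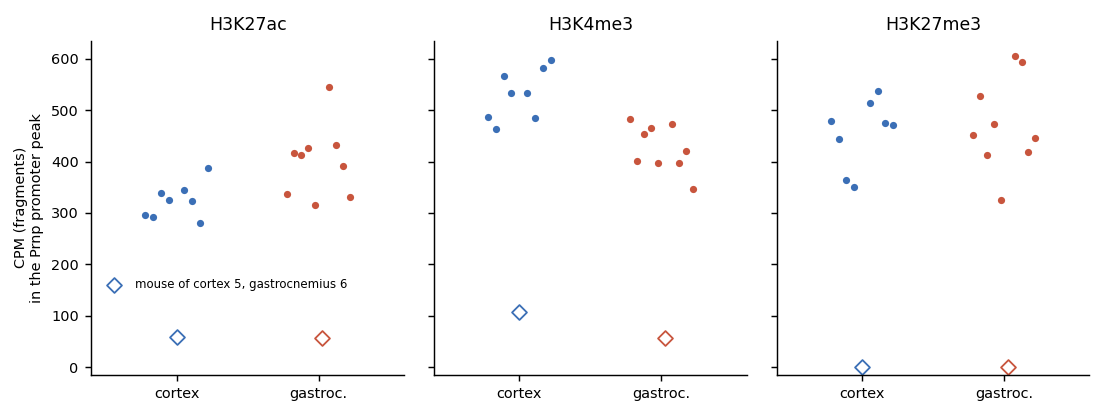
CPM in the peak over the Prnp start site in each library of 3 histone marks (vertical axis) by tissue, with the mouse of cortex replicate 5 and gastrocnemius replicate 6 as an open diamond and a missing peak at 0. The H3K27ac diamonds lie at 57.9 and 56.7, below the lowest filled points at 281 and 316.

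The mouse was kept in the comparisons below, which hardly moved without it. Leaving it out gave 4776 and 5506 sites higher in cortex and gastrocnemius, against 4855 and 5429 with it, and 4020 and 2328 sites called in one tissue alone, against 3914 and 2142. At promoter windows it gave 3129 and 2848, against 3354 and 3098. The Prnp window itself gave a log2 difference of cortex from gastrocnemius of -0.56 ± 0.27 (SE; adjusted p = 0.101 by edgeR's quasi-likelihood test), and without this mouse it was -0.55 with an adjusted p of 3.0e-04. Cortex replicate 9, the shallowest library, also stood apart. Without it, 4866 and 6206 sites were higher in cortex and gastrocnemius, 5572 and 2146 sites were called in one tissue alone, and 3446 and 3228 promoter windows were higher in cortex and gastrocnemius.

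The cortex had more H3K27ac peaks than the gastrocnemius, and less of its signal lay at promoters. Cortex libraries held 45891 to 74382 peaks (mean 64407 ± 9005 SD) and gastrocnemius libraries 46028 to 67089 (53319 ± 5989), with overlapping ranges (exact permutation test over 92378 relabellings, two-sided, adjusted p = 0.0139 over 6 measures). The share of fragments in peaks within 1 kb of a start site was 49.7% ± 2.11 in cortex and 55.9% ± 2.24 in gastrocnemius (exact permutation, adjusted p = 2.27e-04). The widest 1% of peaks held 8.55% to 12.03% of the fragments in cortex and 13.0% to 14.8% in gastrocnemius, with no overlap (exact permutation, adjusted p = 6.495e-05). Median peak width was 3333 ± 436 bp in cortex and 3960 ± 665 bp in gastrocnemius, which did not pass at 0.05 (exact permutation, adjusted p = 0.0511), and with equally many top-scoring peaks the difference was -216 bp (exact permutation, adjusted p = 0.367). Covered length (311 ± 40.8 and 340 ± 36.8 Mb, adjusted p = 0.145, and -17.5 Mb without cortex replicate 9) and the share of peaks at promoters (22.6% ± 2.94 and 24.3% ± 1.70, adjusted p = 0.147) did not pass the same exact permutation test. Without cortex replicate 9 the share of peaks at promoters differed by -2.46 percentage points and passed (exact permutation, adjusted p = 0.0143), as did median peak width (-660 bp, exact permutation, adjusted p = 0.0403). Median width also passed without cortex replicate 1 or 3 (-685 bp each) or gastrocnemius replicate 2, 8 or 9 (-711, -689 and -733 bp). Paired over the animals that gave both tissues it passed as well (-622 bp, exact sign flips, adjusted p = 0.0469). With each library cut to its 45891 top-scoring peaks, the number in the smallest library, covered length differed by -53.0 Mb and passed (exact permutation, adjusted p = 0.0130), and the share of peaks at promoters turned round and was 2.37 percentage points higher in cortex.

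**Figure D2:**
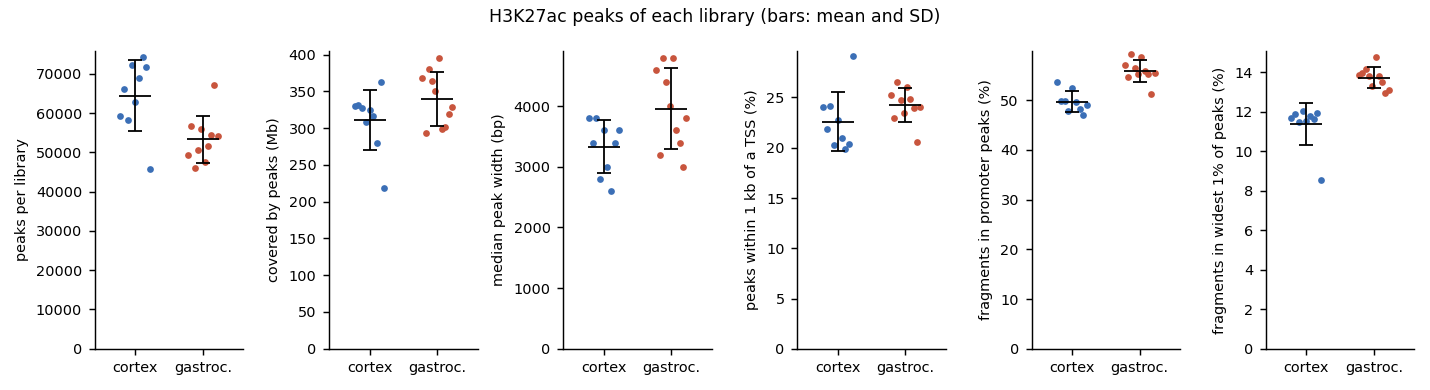
Peaks per library, covered length (Mb), median peak width (bp), peaks and fragments at promoters (%) and fragments in the widest 1% of peaks (%) for 9 cortex and 10 gastrocnemius libraries, with the mean and SD as bars. The tissues do not overlap in the last panel, where cortex lies at 8.55% to 12.03% and gastrocnemius at 13.0% to 14.8%.

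Overlapping peaks of the 19 libraries merged into 65999 sites, of which 49578 were called in at least 3 libraries of a tissue. Of these, 12829 were called in every library, 3914 in every cortex and no gastrocnemius library (7.89%), and 2142 in every gastrocnemius and no cortex library (4.32%). Of all 49578 sites, 12443 (25.1%) reached within 1 kb of a start. So did 739 of the 3914 cortex sites (18.9%), 189 of the 2142 gastrocnemius sites (8.82%) and 8895 of the 12829 sites called everywhere (69.3%). The cortex sites held 6.81% to 7.73% of the fragments of cortex libraries, and the gastrocnemius sites held 2.55% to 3.07% of those of gastrocnemius libraries. With Fisher's exact test of the calls at each of the 49578 sites (two-sided, adjusted p under 0.1), 15856 sites (32%) were called more often in cortex and 7731 (15.6%) in gastrocnemius. The excess of cortex sites shrank to 3338 against 2708 with equally many top-scoring peaks and to 2079 against 1861 when peaks had to cover 50% of the site.

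Among the 12829 sites called in every library, 4855 (37.8%) were higher in cortex and 5429 (42.3%) in gastrocnemius by edgeR's quasi-likelihood test at an adjusted p under 0.1. At least a 2-fold difference was found at 1681 sites (13.1%) and 1671 sites (13%). Merged sites ran up to 419.4 kb and often held several genes, so genes are described by windows of 1 kb on either side of their start. Where a gene has several starts, the start with the highest acetylation summed over the tissue means was used. That start need not be the main promoter, and the Neb window, for one, had no H3K4me3 peak in any library. A window takes its share of the fragments of the peaks over it, spread evenly along each peak, so that neighbours under one broad peak can have equal values. Of 24963 autosomal genes, 14902 (59.7%) had a peak at the window in every cortex library and 14451 (57.9%) in every gastrocnemius library. The window was called in every cortex and no gastrocnemius library at 770 genes (3.08%) and in the reverse way at 289 (1.16%), and 6292 genes had no peak in any library. The 13202 windows called in all libraries were tested with TMM scaling, and 3354 (25.4%) were higher in cortex and 3098 (23.5%) in gastrocnemius. A 2-fold difference was reached at 280 (2.12%) and 217 (1.64%), but at 587 and 83 on the library size scale and at 586 and 394 with windows of 3 kb. Scaling by library size instead moved the split to 6747 and 1023 and the median log2 difference of all windows from 0.02 to 0.29, so that small differences at windows depend on the scale and those below are given with TMM.

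The 8 promoter sites with the most acetylation among those called in every cortex and no gastrocnemius library are described next. Add2, which encodes a membrane skeleton adducin, had 380, 462 and 509 CPM in the lowest, median and highest cortex library over a site of 106 kb at chr6:86020601-86126600 (mm10). Rbfox3, whose product NeuN is a splicing factor of mature neurons, had 351, 424 and 514 over 97.8 kb at chr11:118823201-118921000. Sez6l, a neuronal membrane protein gene, had 180, 232 and 288 over 84.8 kb at chr5:112494601-112579400. Each of these sites covers the promoter and part of the gene body.

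The other 5 of the 8 strongest cortex sites were named by their nearest start as 9530059O14Rik (median 271), Gm46091 (253), Gm34304 (228), Phactr3 (215) and Nfasc (181). The Gm46091 site also holds Pou3f3, a POU factor of upper layer neurons. Nfasc encodes neurofascin, an adhesion molecule of the axon initial segment, and Phactr3 a regulator of phosphatase 1 and actin. None of these sites had a peak in any of the 10 gastrocnemius libraries.

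The 8 strongest promoter sites called in every gastrocnemius and no cortex library included genes of the muscle fibre and a Hox cluster. Cd36, which encodes a fatty acid transporter of muscle and fat, had 133, 169 and 208 CPM in the lowest, median and highest library over 60.0 kb at chr5:17806401-17866400. Mybpc1, the slow myosin-binding protein C gene, had 91.8, 129 and 177 over 38.8 kb at chr10:88569601-88608400. Myl1, which encodes the fast essential myosin light chain, had 83.1, 103 and 177 over 31.0 kb at chr1:66916401-66947400. The cortex libraries had no peak at any of them.

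The other 5 were named Gm41717 (median 213, a site that also holds the Z-disc gene Myot), Hoxb9 (175, with Hoxb3 to Hoxb9 in the site), 4930573O16Rik (140, with Neb, the gene of the thin filament ruler nebulin), Lbx1 (138) and Alpk2 (135). Lbx1 is a homeobox gene of the muscle precursors that migrate into the limb. The medians of the 8 gastrocnemius sites ran from 103 to 213 and those of the 8 cortex sites from 181 to 462.

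The promoter sequences of the classes differed in base composition. In the 300 bases around each start (250 before to 50 after, from the genome), genes with acetylation in cortex alone had a median of 13 CG dinucleotides and those with it in gastrocnemius alone a median of 5. Genes called in every library had 21, genes called in none 2, and all genes 12. The median GC content was 58.7% for cortex alone, 50% for gastrocnemius alone and 61.7% for every library. The following promoters, of the sites just described, are shown with their CG dinucleotides in capitals so that the density can be seen. They are RefSeq sequences on GRCm38.p6 and run 5′ to 3′ along the gene's strand, Add2 at chr6:86028431-86028730 (plus strand), Sez6l at chr5:112577149-112577448 (minus), Mybpc1 at chr10:88605103-88605402 (minus) and Myl1 at chr1:66945007-66945306 (minus).
Add2: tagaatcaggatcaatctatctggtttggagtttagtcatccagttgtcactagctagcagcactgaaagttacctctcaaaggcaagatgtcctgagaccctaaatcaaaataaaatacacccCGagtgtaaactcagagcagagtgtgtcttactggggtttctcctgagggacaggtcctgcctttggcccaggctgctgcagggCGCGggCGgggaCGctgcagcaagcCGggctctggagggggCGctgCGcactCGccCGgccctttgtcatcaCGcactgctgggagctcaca
Sez6l: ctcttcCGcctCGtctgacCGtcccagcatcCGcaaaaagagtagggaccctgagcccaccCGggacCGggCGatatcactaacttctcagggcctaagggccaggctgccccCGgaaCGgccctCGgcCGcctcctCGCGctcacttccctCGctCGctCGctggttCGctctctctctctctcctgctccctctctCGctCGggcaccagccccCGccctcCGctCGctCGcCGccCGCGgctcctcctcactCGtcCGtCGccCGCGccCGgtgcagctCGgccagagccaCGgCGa
Mybpc1: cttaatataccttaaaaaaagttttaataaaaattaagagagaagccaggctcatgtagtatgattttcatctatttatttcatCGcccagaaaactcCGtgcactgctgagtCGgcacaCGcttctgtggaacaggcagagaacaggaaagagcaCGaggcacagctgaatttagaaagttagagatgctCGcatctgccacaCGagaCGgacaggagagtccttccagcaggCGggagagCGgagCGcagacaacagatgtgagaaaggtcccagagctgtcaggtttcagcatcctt
Myl1: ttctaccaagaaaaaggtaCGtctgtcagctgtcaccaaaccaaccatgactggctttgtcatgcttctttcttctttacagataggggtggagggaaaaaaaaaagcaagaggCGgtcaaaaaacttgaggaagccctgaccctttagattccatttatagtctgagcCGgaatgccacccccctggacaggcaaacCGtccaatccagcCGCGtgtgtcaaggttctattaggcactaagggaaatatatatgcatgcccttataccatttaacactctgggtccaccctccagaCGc

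Add2 and Sez6l hold 11 and 35 CG dinucleotides in these windows, and Mybpc1 and Myl1 hold 11 and 7. The Cd36 promoter holds 3 and that of 9530059O14Rik 38. The letters TATAAA, searched on both strands, were in 6.75% of the windows of cortex alone and 22.8% of those of gastrocnemius alone, against 12.8% of all windows. They were in 26.7% of the windows of genes called in no library and 6.24% of those called in every library. The E-box CAGCTG, which equals its reverse complement, was in 19.6% and 25.6%, against 15.9% of all, and CAGATG, on both strands, in 15.1% and 21.5%, against 15.2%. Genes called in no library had CAGCTG in 13.8% and CAGATG in 21.7%, and genes called in every library in 15.2% and 10.8%. These are matches of letters and were not tested as sites.

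Among sites called in every library, 5 had the largest changes towards cortex. Igsf11, an immunoglobulin superfamily adhesion gene, had 183, 252 and 327 CPM in the lowest, median and highest cortex library, and 2.74, 3.80 and 5.13 in gastrocnemius. The groups were far apart, and the log2 difference was 6.09 ± 0.14 (adjusted p = 1.9e-19). Snph, whose product syntaphilin anchors mitochondria in axons, rose by 5.40 ± 0.20. Adgrb1, an adhesion receptor gene, rose by 5.39 ± 0.13, Igsf9b, an adhesion gene of inhibitory synapses, by 5.02 ± 0.11, and Msra, a methionine sulfoxide reductase gene, by 4.81 ± 0.25.

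In the other direction the largest change was at 3425401B19Rik, with 3.15, 4.97 and 9.73 CPM in cortex and 195, 255 and 356 in gastrocnemius. The log2 difference was -5.71 ± 0.16 (adjusted p = 4.7e-18), again without overlap. Cped1 fell by 4.48 ± 0.07 and Klhl31, a kelch gene of muscle, by 4.46 ± 0.12 in cortex against gastrocnemius. The site named by Gh, which also holds Scn4a, the sodium channel gene of skeletal muscle, and Cd79b, fell by 4.43 ± 0.14, and P2ry2, a purinergic receptor gene, by 4.35 ± 0.10.

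Of the sites with the most fragments of all, some differed little between tissues. The site named Plppr3 (346 kb, 24 genes) had medians of 1425 and 1341 CPM in cortex and gastrocnemius and a log2 difference of 0.06 ± 0.04 (adjusted p = 0.12), and Psmd3 (311.6 kb, 13 genes) gave -0.05 ± 0.04 (adjusted p = 0.20). Atp8b3, the third in cortex, gave -0.01 ± 0.04. With TMM factors Plppr3 passed (0.10, adjusted p = 0.0093), and Psmd3 passed without the mouse of cortex replicate 5 (-0.07, adjusted p = 0.092). Neurl1b, the highest in gastrocnemius, was lower in cortex by 0.39 ± 0.03 (adjusted p = 3.7e-10), with 986 to 1170 CPM in cortex and 1335 to 1512 in gastrocnemius.

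The largest changes at promoter windows are described next. A site sums all fragments of its peaks, whereas a window takes the average density of the peaks over it. The sizes of changes at sites and at windows can therefore not be compared. Scrt1, a zinc finger repressor gene of neurons, had 11.7, 16.8 and 19.6 CPM in the lowest, median and highest cortex library and 0.403, 1.39 and 2.49 in gastrocnemius. The log2 difference was 3.21 ± 0.21 (adjusted p = 2.8e-11), without overlap. Gpr85, an orphan receptor gene of the brain, and Kcnf1, a potassium channel subunit gene, rose by 2.96 ± 0.15 and 2.49 ± 0.20. Tcf15, a bHLH factor gene of somites and of muscle capillaries, had 2.30, 2.91 and 4.16 in cortex and 8.25, 11.1 and 13.7 in gastrocnemius, a log2 difference of -2.13 ± 0.10. Ntf3, the gene of neurotrophin-3, fell by 2.09 ± 0.16 in cortex against gastrocnemius, and Gpihbp1, whose product holds lipoprotein lipase on capillaries, by 1.93 ± 0.10.

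Marker lists were read next as a check of the labelled tissues. The counts of each list below stand against all genes, of which 59.7% and 57.9% were called in every cortex and every gastrocnemius library and 3.08% and 1.16% in one tissue alone, and against all tested windows, of which 25.4% rose and 23.5% fell in cortex with TMM. Of 21 autosomal neuronal and synaptic genes, all 21 had a promoter peak in every cortex library and 9 in every gastrocnemius library. The 9 called in cortex alone were the vesicle fusion genes Snap25 and Syt1, the glutamate receptor genes Grin1, Grin2a, Grin2b, Gria1 and Gria2, Rbfox3 and the neurofilament gene Nefl. Rbfox3 had 10.02, 14.1 and 18.6 CPM at its window in the lowest, median and highest cortex library and no peak in gastrocnemius. Of the 9 tested, 6 rose in cortex, 1 fell and 2 did not pass, with a median log2 difference of 0.33 where all windows had 0.02, and on the library size scale 7 rose and none fell.

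Some synaptic windows differed less. Slc17a7, the vesicular glutamate transporter gene of cortical neurons, had 7.36 to 13.0 in cortex and 6.00 to 8.76 in gastrocnemius (log2 difference 0.24 ± 0.10, adjusted p = 0.058). Its difference was 0.65 with windows of 3 kb and 0.52 on the library size scale, and its adjusted p was 0.12 without cortex replicate 4 and 0.11 without cortex replicate 5. Camk2a, a kinase gene of excitatory synapses, had overlapping values of 7.05 to 10.1 and 7.46 to 9.77 and passed in the other direction (-0.27 ± 0.10, adjusted p = 0.033), which on the library size scale turned to 0.01 and with windows of 3 kb did not pass (-0.13, adjusted p = 0.18). The Camk2a window had an H3K4me3 peak in 0 of 9 cortex and 10 of 10 gastrocnemius libraries. Whether the start chosen for Camk2a is the one used in cortex was not tested, so its value may not be that of the neuronal promoter. Vamp2, a vesicle fusion gene, gave -0.11 ± 0.07 (adjusted p = 0.23).

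All 18 factors of cortical neurons were called in every cortex library and 5 in every gastrocnemius library. Neurod1, Neurod6, Fezf2, Bcl11b, Pou3f3 and Myt1l were among those called in cortex alone. Pou3f3 had 10.3, 12.2 and 15.9 CPM at its window, and Bcl11b, a factor of deep layer neurons, 6.02, 8.20 and 13.6. Neurod2 had 4.91 to 10.8 in cortex and a peak in 6 of 10 gastrocnemius libraries, at up to 2.30. Of the 5 tested, 2 rose, 2 did not pass and 1 fell. The last was Foxp1, which is also used outside the brain, at 6.38 to 14.1 in cortex and 9.98 to 18.4 in gastrocnemius (log2 difference -0.66 ± 0.11, adjusted p = 2.1e-05).

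Of 14 interneuron genes, 9 (64.3%, against 59.7% of all genes) were called in every cortex library and 3 in every gastrocnemius library, and 6 were called in cortex alone (Gad1, Gad2, Slc32a1, Dlx5, Dlx6, Reln). Slc32a1, the vesicular GABA transporter gene, had 3.96, 5.64 and 11.9 CPM. Dlx5 and Dlx6, homeobox genes of the ventral forebrain, had medians of 4.22 and 3.95. The neuropeptide genes Sst and Vip had no peak in any library. Of the 3 tested, 1 rose in cortex and 2 fell. Pvalb, which encodes the calcium buffer parvalbumin of fast interneurons and of fast muscle fibres, had 3.26, 3.94 and 4.98 in cortex and 6.501, 7.69 and 10.8 in gastrocnemius, without overlap (log2 difference -1.24 ± 0.11, adjusted p = 1.5e-09). Lhx6, an interneuron LIM factor gene, fell by 0.63 ± 0.10 in cortex against gastrocnemius.

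**Figure D3:**
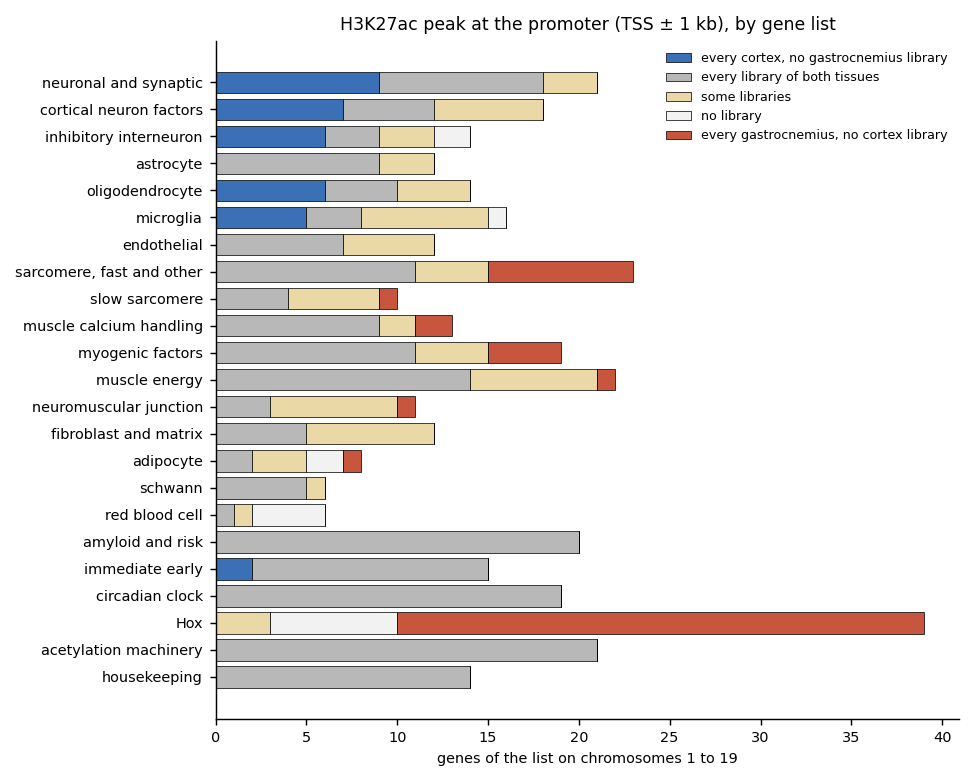
Genes of each list on chromosomes 1 to 19 (horizontal axis, number of genes), coloured by the libraries that called an H3K27ac peak within 1 kb of the start site. The neuronal lists hold genes called in cortex alone, such as 9 of 21 neuronal and synaptic genes, and the first sarcomere list (fast and other) and the Hox list hold genes called in gastrocnemius alone, 8 of 23 and 29 of 39.

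The glial lists were split. All 12 astrocyte genes were called in every cortex library, but 9 were also called in every gastrocnemius library and none in cortex alone. Of these 9, 4 rose in cortex (Slc1a3, Aldoc, Sox9, Slc4a4), 4 fell and 1 did not pass (5, 3 and 1 on the library size scale). Aldoc, the brain aldolase gene, had 5.76 to 12.6 in cortex and 1.96 to 5.57 in gastrocnemius (log2 difference 0.79 ± 0.18, adjusted p = 9.3e-04). Gja1, the gene of connexin 43, which astrocytes share with heart and smooth muscle, had 2.60, 3.29 and 4.89 in cortex and 5.12, 7.69 and 10.7 in gastrocnemius, without overlap (-1.38 ± 0.13, adjusted p = 1.1e-08). Aqp4, the water channel gene of astrocyte endfeet that fast muscle fibres also use, fell by 0.75 ± 0.12 in cortex against gastrocnemius. Aldh1l1 fell by 0.59 ± 0.09. Glul, the glutamine synthetase gene, gave -0.22 ± 0.09 (adjusted p = 0.055) and 0.06 on the library size scale, and its call was lost without cortex replicate 3, 5 or 7. S100b had 4.62 to 7.24 in cortex and a peak in 3 of 10 gastrocnemius libraries.

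Of 14 oligodendrocyte genes, 13 were called in every cortex library, 4 in every gastrocnemius library and 6 in cortex alone (Mog, Mobp, Olig1, Olig2, Ugt8a, Cldn11). Myrf, a myelin gene regulator, had 5.22 to 7.23 in cortex and up to 3.04 in gastrocnemius, where 6 of 10 libraries had a peak, and Sox10 had 6.36 to 8.89 and up to 3.95. Of the 4 tested, 3 did not pass and Cspg4, a gene of precursor cells and pericytes, gave -0.25 ± 0.09 (adjusted p = 0.027) and 0.03 on the library size scale, where 3 of the list rose and none fell. Of 16 microglia genes, 11 (68.8%, against 59.7% of all genes) were called in every cortex library and 3 in every gastrocnemius library, with P2ry12, C1qa, C1qb, C1qc and Trem2 in cortex alone. Spi1, the gene of the myeloid factor PU.1, fell by 0.70 ± 0.10 in cortex against gastrocnemius (4.29 to 6.42 and 4.75 to 8.60 CPM). The other 2 tested did not pass, and 1 of them rose on the library size scale. Aif1 had a peak in 6 libraries of each tissue.

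Endothelial genes went the other way as a list. All 12 were called in every gastrocnemius library and 7 in every cortex library, and all 7 tested were higher in gastrocnemius with TMM and 5 of them on the library size scale. Erg, an ETS factor gene of endothelial cells, had 1.19, 4.15 and 5.56 in cortex and 6.44, 8.46 and 11.04 in gastrocnemius, without overlap (log2 difference -1.50 ± 0.15, adjusted p = 1.2e-08). Cdh5, the gene of VE-cadherin, fell by 1.12 ± 0.09, Egfl7 by 1.01 ± 0.10 and Sox18 by 0.56 ± 0.08. Pecam1 had a peak in 8 of 9 cortex libraries, at up to 6.44, and 6.22 to 9.04 in gastrocnemius. The summed level of the list was 47.8 to 61.6 CPM in cortex libraries and 72.9 to 122 in gastrocnemius libraries.

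The first sarcomere list was higher in gastrocnemius. It holds fast isoforms such as Myh4, genes of all fibre types such as Ttn, Neb, Des and Ldb3, and Mybpc1, the slow isoform of its family. All 23 genes were called in every gastrocnemius library and 11 in every cortex library, and 8 were called in gastrocnemius alone (Myh1, Myh2, Myh4, Myl1, Ttn, Neb, Mybpc1, Myom2). The 11 tested were higher in gastrocnemius with TMM, and 6 of them on the library size scale. The median log2 difference was -0.70. Des, the gene of the intermediate filament desmin, had 4.003, 4.83 and 5.77 in cortex and 9.29, 11.2 and 13.2 in gastrocnemius, without overlap (-1.48 ± 0.10, adjusted p = 5.0e-11). Ldb3, a Z-disc gene, fell by 1.40 ± 0.11 and Tnni2, the fast troponin I gene, by 1.23 ± 0.10. Tnnt3, the fast troponin T gene, had 9.28, 12.04 and 14.5 in gastrocnemius and a peak in 5 of 9 cortex libraries, at up to 4.19. Myoz1, a Z-disc calsarcin gene, had 7.00 to 13.0 in gastrocnemius and a peak in 5 cortex libraries, at up to 2.95.

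The levels of the myosins are given as a description. Myl1 had 7.51, 10.2 and 12.8 CPM at its window, Ttn, the titin gene, 7.08, 8.64 and 12.1, and Myh4, the myosin heavy chain gene of the fastest fibres, 4.65, 5.66 and 8.27. None had a cortex peak. The summed level of this list was 69.9 to 94.4 in cortex libraries and 173 to 258 in gastrocnemius libraries. The cortex sum came from genes such as Des, Ldb3 and Tnni2 that were called there.

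The other sarcomere list holds slow isoforms, and no test compared it with the first. Of its 10 genes, 7 were called in every gastrocnemius library, 5 in every cortex library and only Myoz2 in gastrocnemius alone. Of the 4 tested, 2 rose in cortex, 1 fell and 1 did not pass (3, 1 and 0 on the library size scale). Tnnc1, the slow troponin C gene, had 7.03 to 18.99 in cortex and 6.15 to 8.26 in gastrocnemius (0.34 ± 0.14, adjusted p = 0.057, and 0.10 with the animal as a block). Atp2a2, the calcium pump gene of slow fibres that neurons also use, rose by 0.34 ± 0.08, and Tnnt1, the slow troponin T gene, fell by 0.74 ± 0.19. Tnni1 had 3.07 to 7.91 in gastrocnemius and a peak in 7 cortex libraries, and Myh7b a peak in 8 gastrocnemius and 1 cortex library. The summed levels of this list overlapped, at 39.6 to 52.4 in cortex and 33.7 to 55.8 in gastrocnemius.

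Of 13 genes of excitation and calcium handling, all were called in every gastrocnemius library and 9 in every cortex library. Cacng1 and Trdn were called in gastrocnemius alone. Of the 9 tested, 7 were higher in gastrocnemius, 1 in cortex and 1 did not pass (6, 2 and 1 on the library size scale). Jsrp1, a junctional protein gene, fell by 1.22 ± 0.23, Atp2a1, the calcium pump gene of fast fibres, by 1.04 ± 0.12, Casq1, the calsequestrin gene, by 0.88 ± 0.07 and Stac3 by 0.47 ± 0.13. Jph1, a junctophilin gene, was the exception, at 9.81 to 14.4 in cortex and 6.23 to 10.5 in gastrocnemius (0.30 ± 0.11, adjusted p = 0.031), which turned to -0.03 with windows of 3 kb.

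All 19 myogenic factors were called in every gastrocnemius library and 11 in every cortex library. Myf5 and Pax7, genes of the satellite cell, and Vgll2 were among those called in gastrocnemius alone. Pax7 had 1.44, 2.67 and 3.42 CPM. Of the 11 tested, 7 were higher in gastrocnemius, 1 in cortex and 3 did not pass (6, 3 and 2 on the library size scale). Myog, the myogenin gene, fell by 1.15 ± 0.11, from 5.81 to 8.52 in gastrocnemius to 2.85 to 4.31 in cortex.

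The MEF2 genes, whose factors act in both muscle and neurons, differed among themselves. Mef2d was higher in gastrocnemius (-0.63 ± 0.10, adjusted p = 1.9e-05), with 12.8 to 23.8 in cortex and 16.1 to 27.5 in gastrocnemius. Mef2a was higher in cortex (0.33 ± 0.15, adjusted p = 0.082), with 14.5 to 20.5 and 5.73 to 20.7, and it did not pass without the mouse of cortex replicate 5 (adjusted p = 0.21) or when any of 11 libraries was left out alone. Mef2c did not pass (0.06 ± 0.09).

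All 22 genes of muscle energy metabolism were called in every gastrocnemius library and 14 in every cortex library. Of the 14 tested, 13 were higher in gastrocnemius and 1 did not pass with TMM, and 9 were higher in gastrocnemius and 1 in cortex on the library size scale. Ampd1 was called in gastrocnemius alone. Pygm, the muscle glycogen phosphorylase gene, had 5.03 to 7.06 in cortex and 9.23 to 11.6 in gastrocnemius, without overlap (-1.08 ± 0.08, adjusted p = 5.0e-11). Ucp3, a mitochondrial carrier gene, fell by 1.39 ± 0.10, Hk2, a hexokinase gene, by 1.34 ± 0.12, Cox8b by 1.33 ± 0.09, Gys1, the glycogen synthase gene, by 0.58 ± 0.08 and Eno3 by 0.42 ± 0.07. Mb, the myoglobin gene, had 8.78, 10.4 and 12.6 in gastrocnemius and a peak in 5 cortex libraries, at up to 3.14.

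**Figure D4:**
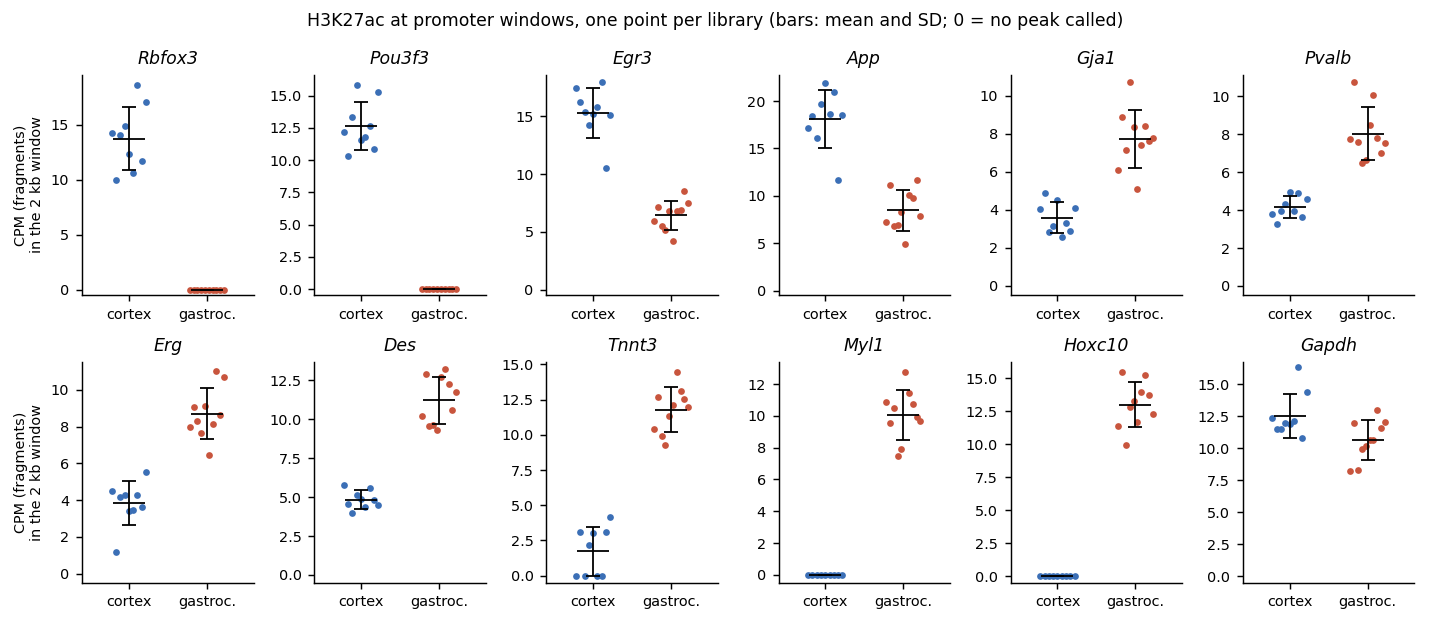
CPM in the window of 1 kb on either side of the start site (vertical axis) for 12 genes in 9 cortex and 10 gastrocnemius libraries, with the mean and SD as bars and 0 where no peak was called. Rbfox3 and Pou3f3 have no gastrocnemius peak, Myl1 and Hoxc10 have no cortex peak, and Gapdh overlaps between tissues at 10.8 to 16.3 and 8.21 to 12.95.

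Lists of the junction and of other cells of muscle were smaller. Of 11 neuromuscular junction genes, 8 were called in every gastrocnemius library, 3 in every cortex library and Musk in gastrocnemius alone. Dok7, an adaptor gene of the junction, fell by 0.52 ± 0.08 in cortex against gastrocnemius. Rapsn had 4.996 to 13.3 in gastrocnemius and Chrne 5.08 to 6.72, each with a peak in 8 cortex libraries at up to 4.81 and 5.20, and Chrnb1 had 6.62 to 9.82 with up to 11.9 in 8 cortex libraries. Of 12 fibroblast genes, 10 were called in every gastrocnemius library and 5 in every cortex library, and 3 of the 5 tested were higher in gastrocnemius. Col1a1, a chain of type I collagen, gave -0.58 ± 0.13, Pdgfra -0.40 ± 0.09 and Col5a1 -0.35 ± 0.10. On the library size scale Col1a1 alone of these passed.

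Of 8 adipocyte genes, 3 were called in every gastrocnemius library, and Fabp4, a fatty acid binding protein gene, was called in gastrocnemius alone at 6.43 to 11.6. The defining genes Adipoq and Lep had no peak in any library, Lipe fell by 0.37 ± 0.08, which did not pass on the library size scale, and Cfd had a peak in 8 cortex and 9 gastrocnemius libraries. Of 6 Schwann cell genes, 6 were called in every gastrocnemius and 5 in every cortex library, and of these 5 none passed the test with TMM and 3 passed as higher in cortex on the library size scale. Prx had 5.92 to 9.08 in gastrocnemius and a peak in 3 cortex libraries. Of 6 red blood cell genes, 4 had no peak in any library, the globin genes Hba-a1 and Hba-a2 among them, and Slc4a1 had a peak in 1 library. What part other cells of each tissue had in the fibre and neuron results was not tested.

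The Hox genes, which set position along the body axis and are silent in the forebrain, were the most divided list. Of 39 genes, 29 were called in every gastrocnemius and no cortex library, 7 had no peak anywhere and 3 were called in some libraries. Hoxc10 had 9.98, 13.1 and 15.5 CPM in gastrocnemius. Hoxc9, Hoxc11 and the noncoding gene Hotair had the same values, because one broad peak lies over all of them. Hoxc5 had 9.62 to 13.96 and Hoxc4 3.54 to 9.98. The summed level of the list was 233 to 303 in gastrocnemius libraries and 0 to 2.82 in cortex libraries.

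All 20 genes of amyloid processing and risk were called in every library of both tissues, and 6 rose in cortex, 3 fell and 11 did not pass with TMM (11, 0 and 9 on the library size scale), shares of 30% and 15% where 25.4% and 23.5% of all windows rose and fell. With the animal as a block 6 rose and 4 fell. App, the gene of the amyloid precursor, had 11.6, 18.6 and 21.9 in cortex and 4.88, 8.07 and 11.7 in gastrocnemius (0.83 ± 0.10, adjusted p = 1.9e-07), and the ranges overlapped only between 11.6 and 11.7. Aplp1, its neuronal relative, had 8.20 to 13.996 and 2.57 to 4.49 and rose by 1.35 ± 0.10. Psen2, Adam17, Clu and Mapt also rose. Psenen and Aph1a, subunits of the secretase that presenilin belongs to, gave -0.42 ± 0.11 and -0.37 ± 0.09, which on the library size scale did not pass. Bin1 gave -0.27 ± 0.09, and 0.01 on that scale. Reads of the human presenilin transgene and of the chimeric APP may align to the mouse genes, and this was not tested.

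Of 15 immediate early genes, all were called in every cortex library and 13 in every gastrocnemius library, with Egr4 and Npas4, which neuronal activity induces, in cortex alone. Arc, a gene of active synapses, had 11.3, 12.5 and 16.3 in cortex and 3.63, 5.09 and 6.95 in gastrocnemius, without overlap (1.08 ± 0.08, adjusted p = 7.9e-11). Egr3 had 10.5, 15.3 and 17.9 and 4.19, 6.79 and 8.57 (0.98 ± 0.09, adjusted p = 1.8e-09). Ier2 fell by 0.77 ± 0.09, Nr4a2 by 0.55 ± 0.10 and Nr4a1 by 0.43 ± 0.08 in cortex against gastrocnemius, the last not on the library size scale. The other 8 tested did not pass. The 2 that rose and 3 that fell are 15.4% and 23.1% of the 13 tested, against 25.4% and 23.5% of all windows. On the library size scale 5 of the 13 rose and 2 fell.

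All 19 clock genes were called in every library, and 4 rose in cortex, 7 fell and 8 did not pass with TMM (9, 1 and 9 on the library size scale, and 3 and 6 with the animal as a block). That is 21.1% and 36.8% of the list, against 25.4% and 23.5% of all windows. Npas2, a CLOCK relative of the forebrain, rose by 0.66 ± 0.09. Among those that fell, Bhlhe40, Tef, Nr1d1, Bhlhe41, Dbp and Per1 did so by between 0.43 and 0.17 and passed on the library size scale in no case, where Dbp and Per1 turned to 0.03 and 0.10. The call of Per1 was also lost with the animal as a block and when any one of 11 particular libraries was left out. All 21 genes of the acetylation machinery were called in every library, with 3 higher in cortex, 2 lower and 16 that did not pass (14.3% and 9.52% higher and lower, below the 25.4% and 23.5% of all windows). Hdac11, a deacetylase gene, was highest above gastrocnemius (0.79 ± 0.13), Hdac3 gave 0.20 ± 0.09, Kat2a -0.21 ± 0.08 and Hdac5 -0.20 ± 0.07. With the animal as a block 2 were higher and 1 lower, since Hdac3 (adjusted p = 0.109) and Hdac5 (0.101) no longer passed, and Hdac3 was also lost when any one of 9 particular libraries was left out. On the library size scale 10 were higher in cortex and none lower, and Kat2a and Hdac5 both turned to 0.08.

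The 14 autosomal housekeeping genes were all called in every library, and with TMM 1 rose in cortex, 2 fell and 11 did not pass, against 8, 0 and 6 on the library size scale. With the animal as a block 2 rose and 2 fell. Gapdh gave -0.06 ± 0.08 and 0.23 on the library size scale. Rplp0 fell by 0.39 ± 0.12 in cortex against gastrocnemius and did not pass on the library size scale.

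MicroRNA genes of neurons and muscle were looked up after the values were seen. The starts annotated for Mir9-2 (chr13:83738814) and Mir128-2 (chr9:112118711) lie beside the mature sequence. Windows of microRNA genes therefore need not hold a promoter. Mature miR-9-5p and miR-128-3p are brain microRNAs, and their sequences (RefSeq, GRCm38.p6) are shown with the seed, bases 2 to 8, in capitals because the seeds set their targets. The copy of miR-9-5p shown lies at chr13:83738821-83738843 in Mir9-2 and that of miR-128-3p at chr9:112118644-112118664 in Mir128-2, and the seeds differ.
miR-9-5p: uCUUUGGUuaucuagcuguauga
miR-128-3p: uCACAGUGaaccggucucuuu

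Mir9-2 had 15.0, 18.4 and 19.9 CPM in the lowest, median and highest cortex library, Mir9-3 13.4, 14.4 and 16.3, Mir124a-2 11.4, 17.01 and 20.02 and Mir128-2 5.06, 6.39 and 9.10. No gastrocnemius library had a peak at any of these. Other copies were less divided, since Mir124a-3 had 10.7 to 18.5 in cortex and a peak in 8 of 10 gastrocnemius libraries, at up to 3.91, Mir124a-1 had a peak in 9 cortex and 1 gastrocnemius library, and Mir128-1 had one in 1 cortex and 2 gastrocnemius libraries. Mir9-1, the other copy of miR-9, was called in every library, at 10.6 to 16.8 in cortex and 3.60 to 5.01 in gastrocnemius (log2 difference 1.30 ± 0.10, adjusted p = 1.1e-10). Mir1a-1 and Mir133a-2, copies of the muscle microRNAs miR-1 and miR-133, share one broad peak and had 8.95, 9.80 and 12.5 in gastrocnemius with no cortex peak. The second copy of miR-1, Mir1a-2, was called in every library, at 0.383 to 5.16 in cortex and 6.55 to 10.98 in gastrocnemius (log2 difference -1.45 ± 0.27, adjusted p = 1.2e-04), as was the neighbouring Mir1b, and Mir133a-1 had a peak in 1 cortex and 10 gastrocnemius libraries. Mir206 had a peak in 3 gastrocnemius libraries and Mir133b in 1.

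Away from promoters, 3175 sites were called in cortex alone and 1953 in gastrocnemius alone. The genes with the nearest start to most of the cortex sites were Ntm (19 sites), Spock1 (18), Dlg2 (16), Tmem178b (16), Anks1b (14) and Celf2 (14), the last pair tied. Ntm encodes neurotrimin, a neuronal adhesion molecule, Dlg2 a scaffold of the postsynapse, and Celf2 a splicing factor. For gastrocnemius they were Plpp3 (11), Palld (10), 1700016G22Rik (8), Zfp462 (8), and 5430434I15Rik and Adamts9 (7 each). Palld encodes palladin, an actin-binding protein, and Plpp3 a lipid phosphatase. None of the cortex genes had a gastrocnemius site, and of the gastrocnemius genes only Zfp462 had a cortex site (1). Such sites are rare at any gene, since 5.51% of all genes were near a gastrocnemius site and 6.77% near a cortex site.

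Some genes were nearest to distal sites of both kinds. They numbered 128, which is 7.57% of the 1690 genes near a cortex site, where 5.51% of all genes were near a gastrocnemius site, and 9.31% of the 1375 near a gastrocnemius site, where 6.77% of all genes were near a cortex site. The overlap was not tested. Psd3 had 5 cortex and 3 gastrocnemius sites, 1810013L24Rik 6 and 2, Gask1b and Kcnab1 3 and 2 each, Gm4419 2 and 3, and Egln3 2 of each. Kcnab1 encodes a potassium channel subunit and Egln3 a prolyl hydroxylase that senses oxygen.

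The strongest distal sites were broad. In cortex the first, 5.92 kb from Mroh4 and just beyond the Adgrb1 promoter site, had 293, 325 and 379 CPM over 77.4 kb at chr15:74553001-74630400. In gastrocnemius the first lay 26.9 kb from the Ttn start, over 122.4 kb at chr2:76833201-76955600, with 143, 222 and 333. The second lay 85.3 kb from Atp6v1b2, at chr8:68970401-69003400, with 63.3, 86.6 and 107. The third, at chr2:77010401-77046800, lay 27.9 kb from the Ttn start, with 64.7, 80.2 and 118. These sites are named only by the nearest start. These sites were chosen after the values were seen.

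The H3K4me3 and H3K27me3 libraries of the same tissues are a readout that the acetylation classes did not use. At the 770 genes acetylated in cortex alone, 88.1% to 90.1% of windows had an H3K4me3 peak in cortex libraries and 25.6% to 44.2% in gastrocnemius libraries. H3K27me3 went the other way, at 46.9% to 56.6% in cortex and 74.7% to 93.0% in gastrocnemius. At the 289 genes acetylated in gastrocnemius alone, H3K4me3 was at 11.4% to 20.8% in cortex and 73.4% to 80.6% in gastrocnemius, and H3K27me3 at 57.4% to 67.5% in cortex and 20.8% to 38.1% in gastrocnemius. The tissues did not overlap in any of these 4 contrasts (exact permutation test, two-sided, adjusted p = 1.68e-05 over 14 tests, and 1.08e-05 unadjusted, the smallest this unpaired test allows). The pairing of tissues by animal was not used in these tests.

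At windows acetylated in every library, H3K4me3 was at 95.1% ± 0.352 in cortex and 96.7% ± 0.485 in gastrocnemius and H3K27me3 at 10.2% ± 0.525 and 13.3% ± 1.25. At windows without acetylation they were at 2.32% and 1.45%, and at 25.9% and 21.6%.

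**Figure D5:**
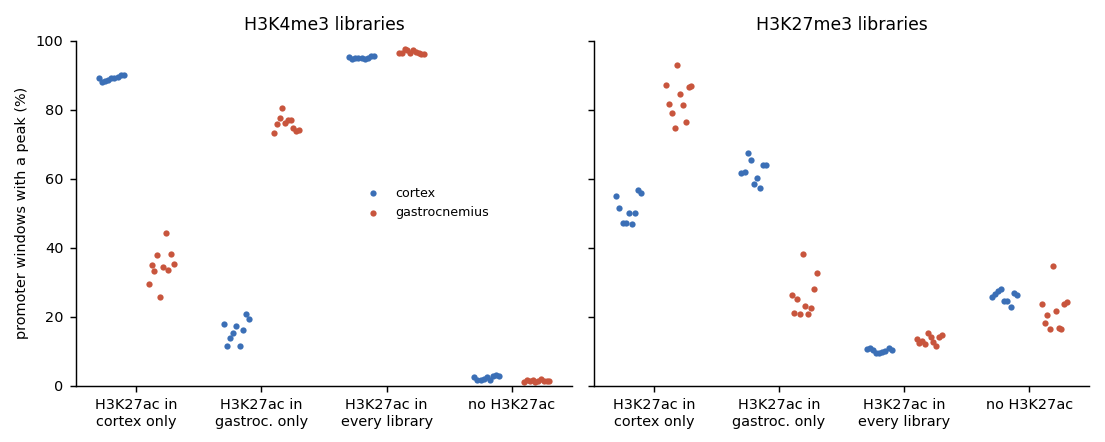
Share of promoter windows with an H3K4me3 peak (left) or an H3K27me3 peak (right) in each library, in percent, for genes grouped by their H3K27ac calls, in cortex (blue) and gastrocnemius (red). Where H3K27ac was called in cortex alone, H3K27me3 lies at 74.7% to 93.0% in gastrocnemius and 46.9% to 56.6% in cortex, and where it was called in gastrocnemius alone the order turns.

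Absence of acetylation and the presence of H3K27me3 did not coincide at every gene. Of the 770 genes acetylated in cortex alone, 473 (61.4%) had an H3K27me3 peak in every gastrocnemius library and 39 (5.06%) in none, against 12.9% and 63.1% of all genes and 8.20% and 61.1% of genes without acetylation. Of the 289 acetylated in gastrocnemius alone, 134 (46.4%) had one in every cortex library and 60 (20.8%) in none, against 13.6% and 67.1% of all genes and 13.5% and 58.5% of genes without acetylation. Gria2 and Snap25 had H3K27me3 in 10 gastrocnemius libraries and in 0 and 2 cortex libraries. Rbfox3 had it in 9 cortex and 10 gastrocnemius libraries, although its window was acetylated in cortex. Pax7, of the satellite cells, had it in 9 cortex and 10 gastrocnemius libraries.

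Muscle genes were unlike each other in cortex. Myl1 and Cd36 had neither H3K27me3 nor H3K4me3 in any cortex library, and their windows had H3K4me3 in 10 of 10 gastrocnemius libraries. Tnnt3 had H3K27me3 in 9 of 9 cortex libraries and no gastrocnemius library, and Ttn in 5 and 0. Hoxc10 had it in 9 cortex and 6 gastrocnemius libraries and Hoxa9 in 9 and 2, with H3K4me3 in 10 gastrocnemius libraries and no cortex library at both.

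Distal sites showed the H3K27me3 contrast as well. At the 3175 cortex sites, H3K27me3 peaks overlapped 14.3% to 18.7% in cortex and 42.2% to 64.7% in gastrocnemius, and at the 1953 gastrocnemius sites 30.2% to 41.2% in cortex and 5.63% to 13.3% in gastrocnemius. At the 3934 distal sites called in every library the tissues overlapped, at 18.6% ± 1.40 and 18.6% ± 2.81 (exact permutation, adjusted p = 0.978). H3K4me3 peaks overlapped more of these shared sites in gastrocnemius, 35.1% ± 4.65 in cortex and 50.2% ± 6.16 (exact permutation, adjusted p = 4.1e-05). H3K4me3 overlapped 9.95% to 19.8% of the cortex sites in cortex and 0.850% to 3.21% in gastrocnemius, and 0.461% to 2.15% and 12.5% to 33.1% of the gastrocnemius sites.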

How the data were processed

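Reads were aligned by the authors to mm10 with bwa 0.7.17, filtered with SAMtools and given to epic2 (windows of 200 bp, 2 gaps, FDR under 0.05, e of 100), which called peaks in each library separately. The sources used here do not name the epic2 version. The deposited count of a peak is its whole number of fragments, not normalized. The deposited score of a peak was used only to rank peaks. Every deposited column of values was assigned to a library.

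Groups followed the tissue in the labels, and animals the code in the deposited names. Each replicate is a separate mouse. The number of animals and the 3.90 to 27.04 M fragments per library limit the precision. Gene starts came from curated RefSeq (24963 genes with 30219 starts on chromosomes 1 to 19). Each gene kept the start with the most acetylation over both tissues. Overlapping peaks were merged into sites. Counts at sites called in every library were tested with edgeR 4.0.16 in R 4.3.3 (quasi-likelihood test, library size scaling) with Benjamini-Hochberg adjustment at 0.1. The SE of a log2 difference was derived as its absolute value divided by the square root of the F statistic of the test. Promoter windows, with counts rounded and TMM factors, were added after the values were seen, because merged sites span many genes. Single library values were compared by exact permutation with SciPy 1.17.1. The code was tested on simulated data.

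The tests have no animal block, which is an alternative. The animal codes pair the libraries of 9 mice, whose deviations from the tissue means correlated at -0.0815 to 0.0838 (9 pairs, none over 0.1). The blocked values are given with the alternatives, except for the contrasts of H3K4me3 and H3K27me3, which were not run with a block.

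The lists and the rule for naming genes were chosen with earlier results of these data known. The rule took from each list up to 4 members with the highest promoter site plus members against the majority, the 8 strongest promoter sites of each one-tissue class, the 5 largest changes in each direction, the 5 genes nearest to most distal sites, and the 3 highest sites of each tissue. Other genes named were chosen after their values were seen, and some genes of the lists are not reported here. Alternatives were other scalings, DESeq2 1.42.0, filters on counts and scores, other definitions of a call, libraries with or without an S number in their name, and each library left out.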

Additional observations from a re-analysis of the deposited data

Results flagged for a closer look

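Of 236 groups of 9 or 10 values examined, 26 held a library whose gap to its neighbour was large for the range of the group, and chance flags about 1 in 20 groups. Of these, 13 were in cortex replicate 9, the shallowest library. It held 3.90 M fragments in peaks where the next cortex library held 14.3 M. Its share of peaks at promoters was 29.1% (next 24.2%) and the share of fragments in its widest peaks 8.55% (next 11.5%). At promoter windows it was the highest cortex library for Vamp2 (24.8 CPM), Dbp (20.6), Gys1 (13.3), Aldoc (12.6), Kat2a (11.001), Col5a1 (10.6), Cspg4 (8.42), Ldb3 (7.75), Cox8b (7.69) and Tnni2 (7.14). The part of its depth in these values was not tested.

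The mouse of cortex replicate 5 and gastrocnemius replicate 6 was flagged at Prnp in both tissues, with 9.82 CPM in its cortex window (next 36.4) and 7.66 in its gastrocnemius window (next 43.8). Gastrocnemius replicate 6 was also the deepest library, with 27.04 M fragments. Whether this mouse carried the transgenes was not tested.

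The remaining flags were single values. Gastrocnemius replicate 9 had 67089 peaks (next 56635) and a Mef2d window of 27.5 CPM. Cortex replicate 8 was low at Egr3 (10.5) and Kcnf1 (11.4). Cortex replicate 2 was low at Erg (1.19), cortex replicate 3 low at Tnnt1 (0.686) and cortex replicate 4 high at Cdh5 (5.51). Gastrocnemius replicate 8 was high at Casq1 (14.3), gastrocnemius replicate 5 high at Ntf3 (12.3) and gastrocnemius replicate 3 low at Kat2a (6.31).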

How the results depend on the processing

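A library without a peak has no count, so weak acetylation and none cannot be told apart, and wide peaks spread their fragments over neighbouring genes. Libraries whose deposited name carries an S number (2 cortex, 4 gastrocnemius) gave 3871 and 3863 sites higher in cortex and gastrocnemius, 5407 and 4301 called in one tissue alone, and 992 and 800 windows (this split was chosen after seeing the data). With the S number as a covariate 4881 and 5407 sites were higher. Without the S libraries 4963 and 5985 sites were higher in cortex and gastrocnemius, 6663 and 2600 were called in one tissue alone, and the 2-fold gastrocnemius windows numbered 327.

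With equally many top-scoring peaks the covered length differed by -53.0 Mb (cortex minus gastrocnemius) and passed, the share of peaks at promoters reversed to 2.37 percentage points, and the number of peaks, equal by construction, gave no value. Median width was -216 bp (adjusted p = 0.367) with equally many top-scoring peaks and passed without the lowest-scored 25% (-929 bp), and the share of peaks at promoters passed without the S libraries (-2.73). With each library left out, the differences ran from 9840 to 13402 peaks, -35.5 to -17.5 Mb, -733 to -533 bp in width, -2.46 to -1.30 points for promoter peaks, -6.75 to -5.87 for promoter fragments and -2.43 to -1.99 for the widest peaks.

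Sites of one tissue numbered 6946 and 4148 when 8 libraries against at most 1 sufficed, 15856 and 7731 by Fisher's exact test, 2079 and 1861 when peaks had to cover 50% of the site, and 3338 and 2708 with equally many top-scoring peaks. They numbered 3925 to 5572 and 2146 to 2276 with each library left out. Taking uncalled libraries as 0 at all consensus sites gave 23550 and 16018 sites higher in cortex and gastrocnemius, and 20412 and 12205 with at least a 2-fold change. Where a tissue had no call, these zeros fixed the direction in advance, so this setting is no test of such sites. At sites called everywhere, the counts higher in cortex and gastrocnemius ran from 4782 to 4916 and 5371 to 6206 with each library left out. Those with at least a 2-fold change ran from 1670 to 1726 and 1652 to 2114. At promoter windows, library size scaling gave 6747, 1023, 587 and 83 for the same counts, and windows of 3 kb gave 586 and 394 with a 2-fold change. With each library left out they ran from 3208 to 3446, 2930 to 3228, 275 to 304 and 204 to 300, and cortex replicate 9 gave the 300.

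With the animal as a replicate block, median width passed (-622 bp, exact sign flips). The blocked counts were 4879, 5339, 1745 and 1676 sites, 3215, 2896, 291 and 217 windows, and 4016 and 2217 sites of one tissue. The pairing changed the calls of Tnnc1 (0.30), Prnp (-0.54), Per1 (-0.16), Hdac3 (0.21) and Hdac5 (-0.18) and no other call of a named window or site. The samples of a pair share a mouse, and 3 of 9 correlated best with their own partner.

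Of 450 values of named windows under these alternatives, 392 kept their direction and their side of the threshold. With 1 library left out, calls were lost at Slc17a7 (cortex replicate 4 or 5), Tnnc1 (cortex replicate 2, 3, 4 or 9), Glul (cortex replicate 3, 5 or 7), Mef2a and Per1 (any of 11 libraries) and Hdac3 (any of 9), and Prnp passed without cortex replicate 3 or 4 or gastrocnemius replicate 6. On the library size scale the log2 difference reversed at Camk2a (0.0105), Cspg4 (0.0277), Gapdh (0.229), Vamp2 (0.176), Glul (0.0571), Bin1 (0.0104), Dbp (0.0306), Per1 (0.104), Kat2a (0.0762) and Hdac5 (0.0755). With windows of 3 kb it reversed at Jph1 (-0.0295), Gapdh (0.0874) and Vamp2 (0.0462). The sites at Plppr3 (TMM factors) and Psmd3 (without the Prnp mouse) passed, as each did in some fits with a library left out (0.0475 to 0.0814 and -0.0695 to -0.0328). The site at Atp8b3 reversed with TMM factors (0.0229) and ran from -0.0301 to 0.0054 with each library left out. The cause of these changes was not tested.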
